A study of Mus musculus with 9 samples.

Results

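The immunity-related GTPase (IRG) genes described here are Irgm1, Irgm2, Igtp, Iigp1, Tgtp1, Tgtp2, Ifi47 and Gm12250. These 8 of the 54532 genes in the count table were taken by symbol, and each symbol had reads. They were selected on their high read counts in adipose-derived stem cells (ASCs) from subcutaneous fat, so their values in those cells against the others are given as a description without a test. Bulk mRNA sequencing was performed on cultured ASCs of C57BL/6 mice, with 3 libraries each from the subcutaneous depot (Sub-ASC), the abdominal depot (Ab-ASC) and the perivascular depot (PVASC). The comparison was made to find how ASCs of different fat depots differ in transcription. No treatment is named for any group, and all were cultures at passages 3 to 6, grown in serum with leukemia inhibitory factor and FGF. Neither the labels nor the methods tell the age or sex of the mice, the passage of each library or whether the 3 cultures of a group came from separate animals, so the spread between libraries may be technical.

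IRG proteins are large GTPases made by mouse cells after exposure to interferon, chiefly interferon-γ. Effector members, called the GKS class, load onto the vacuole around intracellular parasites and bacteria and break it open. Regulatory members, called the GMS class, sit on the membranes of the cell itself and keep the effectors in an inactive state there. Irgm1, Irgm2 and Igtp (Irgm3) are the GMS proteins, and Iigp1 (Irga6), Tgtp1 and Tgtp2 (Irgb6), Ifi47 (Irgd) and Gm12250 (Irgb10) belong to the GKS class.

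The class names come from the loop that holds the nucleotide, in which a lysine of the GKS class is replaced by methionine in the GMS class. The coding bases of this loop are shown because they divide the 8 genes into these classes, with the codon at the variable position in capitals. The bases were read 5′ to 3′ on the coding strand from the GENCODE M21 transcripts.
Irgm1 (chr11:48866761-48866784, minus strand): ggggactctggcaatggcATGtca
Irgm2 (chr11:58219695-58219718, plus strand): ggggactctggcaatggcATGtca
Igtp (chr11:58206275-58206298, plus strand): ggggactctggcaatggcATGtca
Tgtp1 (chr11:48987667-48987690, minus strand): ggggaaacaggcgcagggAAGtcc
Tgtp2 (chr11:49059534-49059557, minus strand): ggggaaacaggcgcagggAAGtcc
Ifi47 (chr11:49095648-49095671, plus strand): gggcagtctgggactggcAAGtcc
Gm12250 (chr11:58187981-58188004, plus strand): ggggagacaggggcagggAAGtcc

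All 24 bases were identical in the 3 GMS genes, although their coding sequences as a whole were 64% to 67.9% identical. The stretch lies in the last exon of each gene. Iigp1 also carried AAG at this position. Gm12250 is listed in the deposited table as a processed pseudogene, yet its transcript held an open reading frame of 417 codons with this loop. Tgtp1 and Tgtp2 were identical at 1241 of 1245 coding positions (99.7%), so how their reads were divided between them is uncertain. The next closest pair of coding sequences was Irgm2 and Igtp.

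Interferon acts on these genes through STAT and IRF proteins bound near their starts. A RefSeq promoter window (GRCm38.p6), from 250 bases before to 50 bases after the start, was available for 7 of the 8 genes, all but Iigp1. The letters GAAA, then any pair of bases, then GAAA, of the interferon-stimulated response element (ISRE) were found on either strand in 6 of the 7 windows and in 3.44% of all 32851 windows. The letters TTCNNNGAA of the γ-activated site (GAS) were found in 5 of the 7 and in 8.3% of all windows. Parts of these windows that lie before the start are shown because they hold the ISRE matches, in capitals, and because Ifi47 is the exception. They are written 5′ to 3′ on the strand of the gene, and that of Irgm1 lies in an exon of a noncoding Irgm1 transcript.
Irgm1 (chr11:48871421-48871480, minus strand): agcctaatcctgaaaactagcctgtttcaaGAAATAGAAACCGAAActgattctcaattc
Irgm2 (chr11:58214883-58214942, plus strand): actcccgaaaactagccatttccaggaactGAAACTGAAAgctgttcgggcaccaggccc
Igtp (chr11:58199492-58199551, plus strand): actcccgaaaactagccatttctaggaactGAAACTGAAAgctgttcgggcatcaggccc
Tgtp1 (chr11:48992294-48992353, minus strand): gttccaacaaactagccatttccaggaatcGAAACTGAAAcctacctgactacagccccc
Tgtp2 (chr11:49064253-49064312, minus strand): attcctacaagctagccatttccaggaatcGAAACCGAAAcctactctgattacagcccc
Gm12250 (chr11:58183722-58183826, plus strand): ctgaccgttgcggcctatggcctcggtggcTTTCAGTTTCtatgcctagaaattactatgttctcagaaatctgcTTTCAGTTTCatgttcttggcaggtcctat
Ifi47 (chr11:49076507-49076586, plus strand): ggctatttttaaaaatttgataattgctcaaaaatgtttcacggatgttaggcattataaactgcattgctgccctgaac

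Irgm1 held 2 overlapping ISRE matches, Gm12250 held 2 on the opposite strand, and the other 4 genes held 1 each. In Irgm2, Igtp, Tgtp1 and Tgtp2 the GAS match lay just before the ISRE match, and Irgm1 and Ifi47 had no GAS match in these windows. The 2 motifs overlapped in none of these windows. The windows of Igtp and Irgm2 were 72.8% identical and those of Tgtp1 and Tgtp2 66.8%, while other pairs were 39.3% to 50.3% identical. RefSeq starts Irgm2, Tgtp1 and Irgm1 within the gene as listed in the table, by 15359, 1926 and 263 bases, and Gm12250 3896 bases before its listed start. These matches describe letters in a window and no binding was measured.

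Of the 8 genes, 7 lie on chromosome 11 in 2 regions, at the positions given in the table, which matched GENCODE M21 on GRCm38. Irgm1 (chr11:48861968-48871683), Tgtp1 (chr11:48985327-48994172), Tgtp2 (chr11:49057194-49064206) and Ifi47 (chr11:49076587-49096974) lie together. Gm12250 (chr11:58187739-58189012), Igtp (chr11:58199556-58207591) and Irgm2 (chr11:58199618-58222782) lie farther along the same chromosome. Iigp1 (chr18:60376029-60392627) lies on chromosome 18, where GENCODE M21 has it at slightly different ends (60376027-60392634). Igtp and Irgm2 share 162 exonic bases on the same strand, which is 8.01% of the exonic bases of Igtp and 4.39% of those of Irgm2, and reads there cannot be assigned to either gene.

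The libraries held 20524173 to 29881036 reads. After a filter on low counts, 16526 genes were tested with edgeR's quasi-likelihood test. Levels are CPM, which are reads scaled to library size and by TMM, and FPKM, which also divides by length, where genes are compared with each other, and errors are SDs over 3 libraries. All 8 genes passed the filter, which Tgtp1, Tgtp2 and Gm12250 did only through their reads in Sub-ASCs. The ASC surface genes Ly6a, Thy1 and Eng were detected in every group. Ly6a was 2047 ± 115 CPM in Sub-ASCs, 21.7 ± 3.42 in Ab-ASCs and 111 ± 4.45 in PVASCs. Thy1 was 332 ± 11.4, 231 ± 24.2 and 882 ± 19.1 CPM, and Eng was 108 ± 4.47, 145 ± 10.1 and 328 ± 10.6 CPM. Of 8 surface genes, 4 were higher and 4 lower in Sub-ASCs than in PVASCs, and 5 were higher and 3 lower than in Ab-ASCs. Of all genes tested, 35.7% were higher and 34.7% lower in Sub-ASCs than in PVASCs, and 38.3% and 37% than in Ab-ASCs.

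The IRG genes together took 0.411% to 0.443% of the reads of each Sub-ASC library, 0.00385% to 0.00415% in Ab-ASCs and 0.00717% to 0.00749% in PVASCs. Every one of the 8 was higher in all Sub-ASC libraries than in any other library. They were chosen on their reads in Sub-ASCs, and the share of all genes that stand apart in this way was not counted. In bulk samples, fewer cells of a type and less RNA per cell cannot be told apart. By FPKM, Iigp1 ranked 61 among all genes in Sub-ASCs, Igtp 112, Ifi47 231, Irgm2 294 and Irgm1 536, whereas in PVASCs these genes ranked between 5399 and 11389.

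Among the regulatory genes, Irgm1 had 493, 529 and 496 CPM in Sub-ASC replicates 1 to 3, 28.5, 27.5 and 26.2 CPM in Ab-ASCs, and 46.8, 43.3 and 46 CPM in PVASCs. The 3 groups did not overlap, with Sub-ASCs highest and Ab-ASCs lowest. Irgm1 guards the membranes of the cell and takes part in autophagy, and it was the most abundant of the 8 transcripts outside Sub-ASCs by FPKM. Summed over libraries, it was 11.2-fold higher in Sub-ASCs than in PVASCs (95% counting interval 10.8 to 11.5) and 18.5-fold higher than in Ab-ASCs (17.7 to 19.5), the smallest folds among the 8 genes. These exact intervals cover counting error only.

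Irgm2 had 557, 590 and 566 CPM in Sub-ASCs, 4.18, 3.6 and 3.65 CPM in Ab-ASCs, and 6.6, 6.06 and 6.52 CPM in PVASCs. Again the groups stood apart in the same order. The fold over PVASCs was 89.2 (82.3 to 96.9) and that over Ab-ASCs 151 (133 to 172).

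Igtp had 712, 730 and 719 CPM in Sub-ASCs, 3.38, 2.62 and 2.9 CPM in Ab-ASCs, and 2.44, 3.66 and 2.57 CPM in PVASCs. Here Ab-ASCs and PVASCs overlapped, and Sub-ASCs lay far above both. The folds of Igtp were 251 (223 to 284) over PVASCs and 245 (212 to 284) over Ab-ASCs.

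Among the effector genes, Iigp1 had 1564, 1718 and 1478 CPM in Sub-ASCs, 0.751, 3.2 and 1.74 CPM in Ab-ASCs, and 3.94, 3.56 and 3.88 CPM in PVASCs. It had the most reads of the family in Sub-ASCs, and its Ab-ASC libraries were widely spread, from 14 reads in replicate 1 to 72 in replicate 2, yet all lay below the PVASC libraries. The folds of Iigp1 were 418 (376 to 465) over PVASCs and 807 (677 to 970) over Ab-ASCs, the second being 1230 without Ab-ASC replicate 2.

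Ifi47 had 475, 457 and 464 CPM in Sub-ASCs, 8.15, 6.22 and 6.15 CPM in Ab-ASCs, and 8.28, 8.6 and 8.39 CPM in PVASCs. Replicate 1 of the Ab-ASCs came close to the PVASC libraries without overlapping them. Its folds, 55.2 (51.5 to 59.4) over PVASCs and 68.8 (62.5 to 75.8) over Ab-ASCs, were the smallest among the effector genes.

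Tgtp1 had 3633, 4404 and 4365 reads in Sub-ASCs, 2, 2 and 0 in Ab-ASCs, and 3, 8 and 10 in PVASCs. Tgtp2 had 4572, 4713 and 4885 reads in Sub-ASCs, 6, 5 and 2 in Ab-ASCs, and 7, 11 and 13 in PVASCs. Outside Sub-ASCs both near-identical genes were thus at a handful of reads, and 3 reads correspond to 0.0916 to 0.161 CPM in these libraries. Summed, the pair was 638-fold higher in Sub-ASCs than in PVASCs (487 to 855) and 1325-fold higher than in Ab-ASCs (827 to 2275).

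Gm12250 had 3257, 3459 and 3436 reads in Sub-ASCs, 1, 2 and 4 in Ab-ASCs, and 1, 1 and 7 in PVASCs. Ab-ASCs and PVASCs overlapped, and replicate 3 of the PVASCs held 7 of the 9 PVASC reads. The ratio was 1409 against PVASCs (742 to 3083) and 1230 against Ab-ASCs (597 to 3059). It was 4213 without PVASC replicate 3 and 1857 without Ab-ASC replicate 3.

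**Figure D1:**
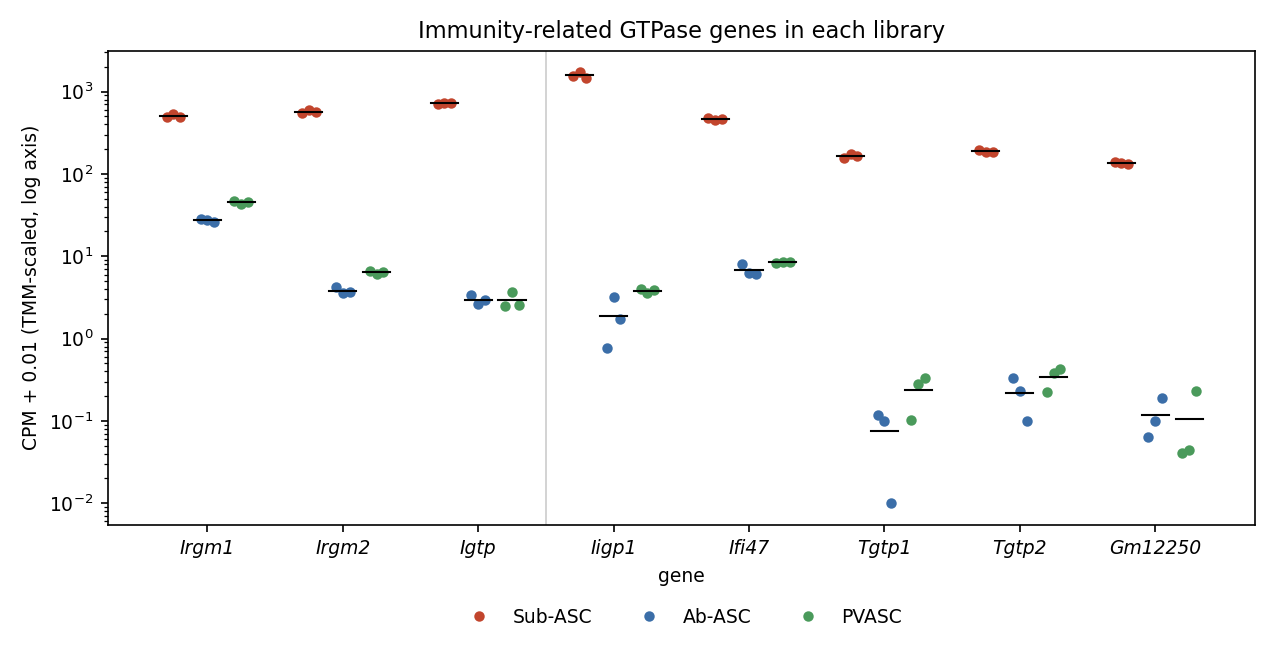
CPM + 0.01 (log axis) of the 8 IRG genes in each of the 9 libraries, with points for libraries and bars for the mean of 3, and regulatory genes left of the grey line. Sub-ASC points lie between 131 and 1718 CPM, above all others, and Irgm1 is the only gene above 10 CPM in Ab-ASCs and PVASCs.

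The fitted log2 fold changes of the 8 genes ranged from 3.48 to 10.39 against PVASCs, with a median of 8.34, and from 4.21 to 11.25 against Ab-ASCs, with a median of 8.80. Without Tgtp1, Tgtp2 and Gm12250, which passed the filter only through Sub-ASC reads, the highest were 8.71 and 9.66 and the medians 6.48 and 7.23. Over all 16526 genes the medians were 0.01 and 0.03. In these contrasts 70.4% and 75.3% of all genes differed at an adjusted p under 0.05 with edgeR, 35.7% and 38.3% being higher and 34.7% and 37% lower in Sub-ASCs. All 8 genes were on the higher side by the way they were chosen. The Sub-ASC libraries serve in both contrasts, so the 2 are not independent.

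The order of the genes by FPKM, a level per length, differed between depots. In Sub-ASCs it ran from Iigp1 (498 ± 39.1 FPKM) over Igtp (349 ± 4.54), Ifi47 (184 ± 3.49), Irgm2 (152 ± 4.75), Gm12250 (104 ± 3.59), Irgm1 (85.3 ± 3.49) and Tgtp2 (63 ± 2.07) to Tgtp1 (50.4 ± 2.65), and no neighbours in this order overlapped between libraries. The place of Iigp1 rests on its length in the table, 3121 bases. With the 5823 exonic bases of GENCODE M21, a length tried after the data had been seen, it came second with 267 ± 21 FPKM.

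In PVASCs the order was Irgm1 (8.53 ± 0.367 FPKM), Ifi47 (3.72 ± 0.0592), Irgm2 (1.89 ± 0.0923), Igtp (1.56 ± 0.354), Iigp1 (1.33 ± 0.077), Tgtp2 (0.124 ± 0.0391), Gm12250 (0.0821 ± 0.0944) and Tgtp1 (0.0773 ± 0.0407). Irgm2 and Igtp did not differ beyond their spread, nor did Igtp and Iigp1, Tgtp2 and Gm12250, or Gm12250 and Tgtp1. In Ab-ASCs Irgm1 (4.4 ± 0.146 FPKM) and Ifi47 (2.58 ± 0.362) also led, followed by Igtp (1.37 ± 0.142), Irgm2 (0.964 ± 0.0571) and Iigp1 (0.573 ± 0.382), of which Irgm2 and Iigp1 overlapped. Gm12250 (0.0788 ± 0.048), Tgtp2 (0.0667 ± 0.0358) and Tgtp1 (0.0189 ± 0.0165) came last there, each overlapping the next. Irgm1, the first in both these groups, was sixth of 8 in Sub-ASCs.

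As a share of the summed FPKM of the 8 genes, the 3 regulatory genes made up 39.4% ± 0.771 in Sub-ASCs, 67% ± 1.5 in Ab-ASCs and 69.2% ± 0.779 in PVASCs. The difference lay mostly in Irgm1, with 5.74% ± 0.0909 in Sub-ASCs, 43.8% ± 0.823 in Ab-ASCs and 49.3% ± 1.85 in PVASCs. Iigp1 went the other way, from 33.5% ± 1.46 in Sub-ASCs to 5.72% ± 3.73 in Ab-ASCs and 7.66% ± 0.397 in PVASCs. Irgm2 held nearly the same share in each, with 10.2%, 9.59% and 10.9%. Tgtp1 and Tgtp2 together held 7.64% ± 0.187 in Sub-ASCs, 0.838% ± 0.488 in Ab-ASCs and 1.16% ± 0.456 in PVASCs. Shares depend on the lengths used, and with GENCODE exonic lengths Iigp1 held 21.3% ± 1.1, 3.17% ± 2.11 and 4.26% ± 0.229 in the same order, while as a share of reads Irgm1 held 11.7%, 63.3% and 67.2%. Without Ab-ASC replicate 2 the share of Iigp1 in Ab-ASCs was 3.8%. These shares follow from the unequal folds above and are given without a test.

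**Figure D2:**
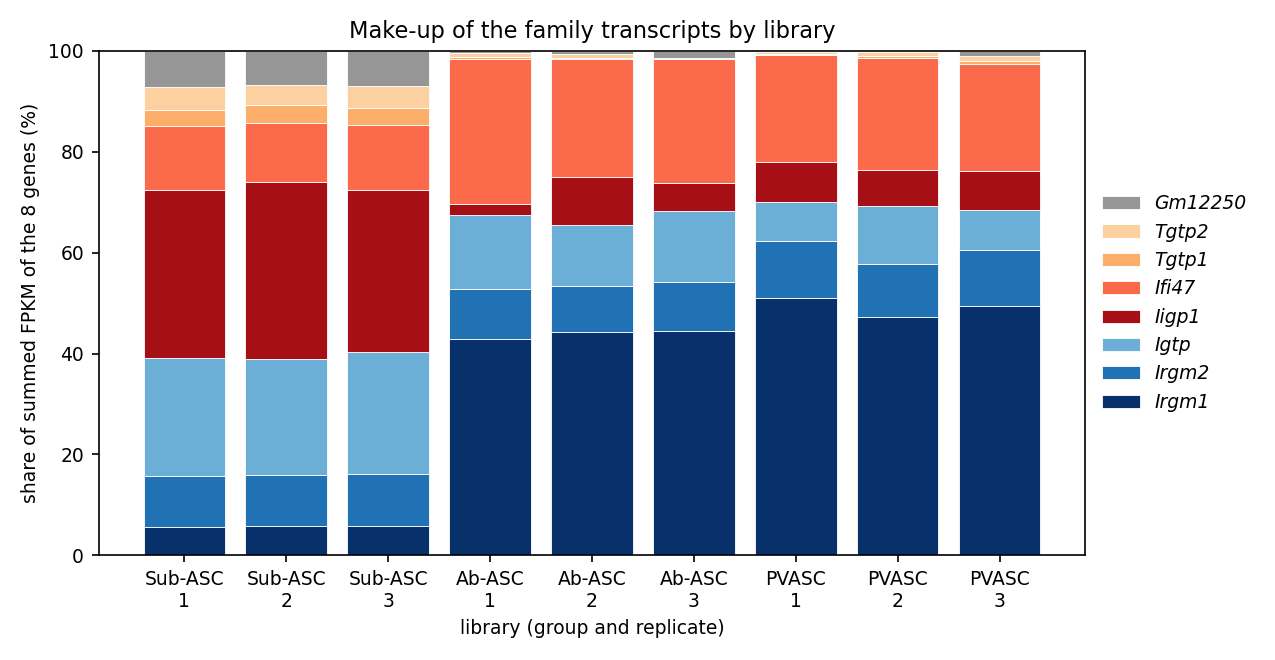
Share (%) of each IRG gene in the summed FPKM of the 8 genes, 1 bar per library, regulatory genes in blue. Irgm1 takes 5.64% to 5.8% of the bar in Sub-ASCs and 42.9% to 51% in the other libraries.

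PVASCs against Ab-ASCs is the contrast in which the genes were not chosen. On the reads of these groups alone, 5 of the 8 genes, Irgm1, Irgm2, Igtp, Iigp1 and Ifi47, passed the count filter. Of these, 4 were higher in PVASCs and 0 lower by edgeR's quasi-likelihood test, at a Benjamini-Hochberg adjusted p under 0.05. Among all genes tested, 56.9% differed in this contrast, 24.7% being higher and 32.1% lower in PVASCs. The count of 4 was 2 to 4 when libraries were left out, with 3 without Ab-ASC replicate 2, Ab-ASC replicate 3 or replicate 2 of each group, and 2 without replicate 3 of each group. It was 0 where a log2 fold change of at least 1 was required. With library totals in place of TMM, an alternative added after seeing the data, 38% of all genes were higher and 16.2% lower, and the same 4 members were higher.

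Irgm1 was 27.4 ± 1.17 CPM in Ab-ASCs and 45.4 ± 1.78 in PVASCs, a log2 fold change of 0.73 (SE 0.0587, edgeR adjusted p = 7.0e-07). Irgm2 rose by a similar amount, from 3.81 ± 0.324 to 6.39 ± 0.288 CPM, with a log2 fold change of 0.75 (SE 0.0831, edgeR adjusted p = 1.2e-05). Both remained past the threshold in all 20 alternatives that were run, including each left-out library, other than the minimum log2 fold change, which is not counted here or below.

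Iigp1 was 1.9 ± 1.23 CPM in Ab-ASCs and 3.79 ± 0.206 in PVASCs, with a log2 fold change of 0.96 (SE 0.281, edgeR adjusted p = 0.012). The log2 fold change moved with the library left out, to 0.62 without Ab-ASC replicate 1 and 1.55 without Ab-ASC replicate 2, and to 0.59 and 1.60 without replicate 1 or 2 of each group. Without replicate 3 of each group its adjusted p was 0.125. Ifi47 was 6.84 ± 1.14 CPM and 8.42 ± 0.165 CPM, with a log2 fold change of 0.31 (SE 0.0959, edgeR adjusted p = 0.0158). This call was lost in 4 of 20 alternatives, with adjusted p = 0.0654 without Ab-ASC replicate 2, 0.0859 without Ab-ASC replicate 3, 0.156 without replicate 2 of each group and 0.192 without replicate 3 of each group.

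Igtp did not pass the test, with a log2 fold change of -0.03 (SE 0.152, edgeR adjusted p = 0.865). Tgtp1, Tgtp2 and Gm12250 entered the fit only through Sub-ASC reads, so they are given as reads with no call. Summed over 3 libraries, Tgtp1 had 4 reads in Ab-ASCs and 21 in PVASCs, Tgtp2 had 13 and 31, and Gm12250 had 7 and 9.

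**Figure D3:**
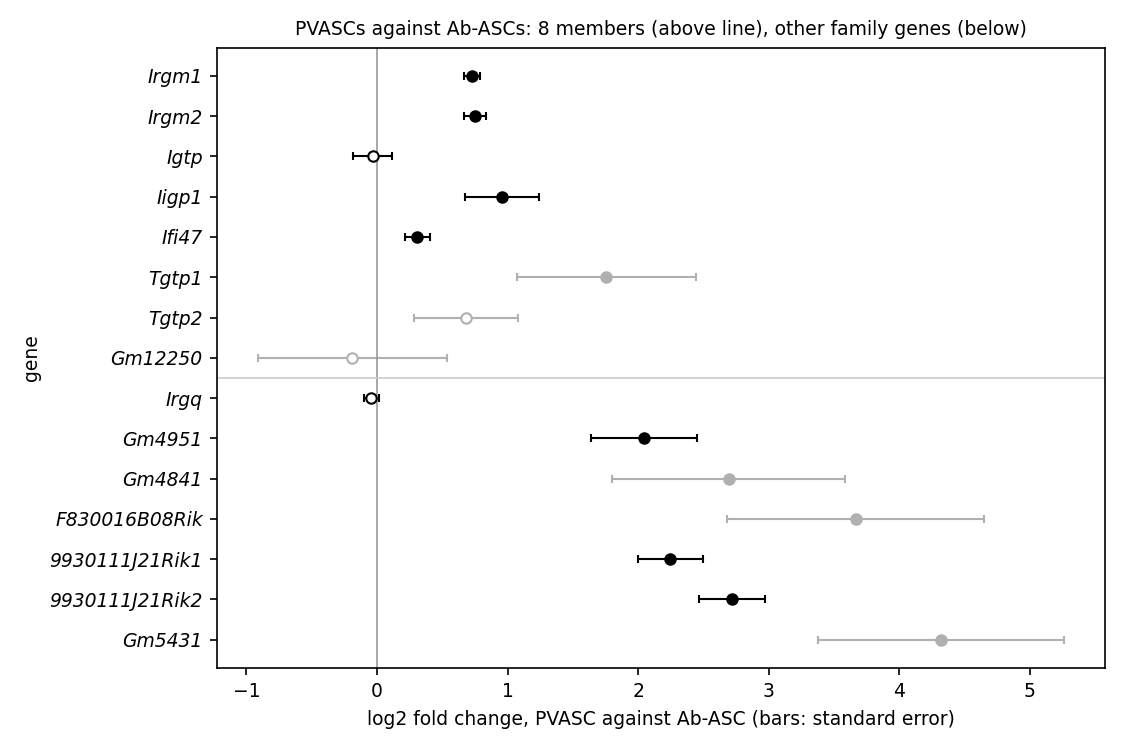
Log2 fold change between PVASCs and Ab-ASCs with standard errors for the 8 IRG genes, above the grey line, and 7 further IRG genes, below it. Filled points passed edgeR's test at an adjusted p of 0.05, and positive values are higher in PVASCs. Grey points are genes that entered the fit only through Sub-ASC reads, 3 of the 8 and 3 of the 7, for which no call is given in the text.

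Of the other IRG genes, 8 were in the table and 7 were tested. Irgc1, a gene of this family known from testis, had at most 3 reads in any library. Irgq, a distant member of the family, was nearly level across depots, at 47.6 ± 2.95 CPM in Sub-ASCs, 53.9 ± 0.851 in Ab-ASCs and 52.3 ± 0.499 in PVASCs. Sub-ASCs were lower than Ab-ASCs, with a log2 fold change of -0.18 (edgeR adjusted p = 0.0162), and the adjusted p was 0.0582 against PVASCs and 0.546 between PVASCs and Ab-ASCs.

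Gm4951, Gm4841 and F830016B08Rik, which neighbour Iigp1 on chromosome 18, were patterned like the 8 genes. Gm4951 had 3913, 4633 and 4062 reads in Sub-ASCs, 2, 2 and 3 in Ab-ASCs, and 20, 12 and 12 in PVASCs. Gm4841 had 2198, 2670 and 2423 reads in Sub-ASCs, 1 read over the 3 Ab-ASC libraries and 12 over the 3 PVASC libraries. Gm4951 was higher in PVASCs than in Ab-ASCs, with a log2 fold change of 2.04 (edgeR adjusted p = 0.00104). Gm4841 and F830016B08Rik entered the fit only through Sub-ASC reads.

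The tandem IRG genes 9930111J21Rik1 and 9930111J21Rik2 lie between Irgm1 and Tgtp2 yet had another pattern. 9930111J21Rik2 had 10, 18 and 18 reads in Sub-ASCs, 8, 17 and 19 in Ab-ASCs, and 126, 162 and 138 in PVASCs. PVASCs thus stood above both other groups, with log2 fold changes of 2.72 over Ab-ASCs (edgeR adjusted p = 2.3e-06) and of -2.89 for Sub-ASCs against PVASCs (adjusted p = 3.7e-07). 9930111J21Rik1 was highest in PVASCs too, at 3.35 ± 0.703 CPM, beside 2.38 ± 0.28 in Sub-ASCs and 0.695 ± 0.203 in Ab-ASCs. Gm5431 had 89, 1 and 38 reads in Sub-ASCs, Ab-ASCs and PVASCs. Of the 7 genes, 4 passed the count filter without the Sub-ASC libraries. Of these, 3 were higher in PVASCs than in Ab-ASCs, Gm4951, 9930111J21Rik1 and 9930111J21Rik2, and 0 lower. Among all genes 24.7% were higher and 32.1% lower.

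Interferons bind receptors that activate the kinases JAK1, JAK2 and TYK2, and these pass the signal on towards the nucleus. Of the ligand genes, Ifng had 64, 49 and 56 reads in the Sub-ASC libraries, 0 in each Ab-ASC library and 0, 17 and 0 in the PVASC libraries. Interferon-γ transcripts were therefore found in every Sub-ASC library and in 1 PVASC library. Of 9 type I and type III ligand genes, 6 had no read in any library and the other 3 had at most 2 reads per group.

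Of 6 receptor genes, 5 were tested, and all 5 were lower in PVASCs than in Ab-ASCs, where 32.1% of all genes were. In a fit of only these groups 4 were lower, Ifngr2 being lost (log2 fold change -0.09, edgeR adjusted p = 0.211), and leaving out libraries gave 4 to 5. With library totals 3 were lower, and Ifngr2 had a log2 fold change of 0.06 (adjusted p = 0.366). Against PVASCs, 4 were higher and 1 was lower in Sub-ASCs, where 35.7% and 34.7% of all genes were. Against Ab-ASCs 3 were higher and 2 lower, where 38.3% and 37% of all genes were. Ifngr1, the ligand-binding chain for interferon-γ, was 90.2 ± 2.59 CPM in Sub-ASCs, 47.3 ± 1.19 in Ab-ASCs and 37.7 ± 0.751 in PVASCs. Its partner Ifngr2 was the exception against PVASCs and was lower in Sub-ASCs, at 85.1 ± 1.85 CPM, than in Ab-ASCs at 156 ± 12.5 and PVASCs at 139 ± 2.22. Il10rb was also lower in Sub-ASCs than in Ab-ASCs, at 26.6 ± 0.183 and 35.4 ± 3.44 CPM, with a log2 fold change of -0.41 (edgeR adjusted p = 0.00025).

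All 11 JAK, STAT and IRF genes were higher in Sub-ASCs than in either other group, in contrasts where 35.7% and 38.3% of all genes were. Irf1, an activator of IRG genes, was 317 ± 15.5 CPM in Sub-ASCs, 22.1 ± 2.25 in Ab-ASCs and 15.2 ± 0.18 in PVASCs. Between PVASCs and Ab-ASCs the 11 genes were divided, with 4 higher and 2 lower, where 24.7% and 32.1% of all genes were. With library totals 7 were higher and 2 lower, where 38% and 16.2% of all genes were. Among those higher in PVASCs were Irf8 and Irf9, with log2 fold changes of 1.12 and 0.52, and Irf1 and Jak1 were lower, by -0.54 and -0.39. All 6 negative regulators were also higher in Sub-ASCs than in either group, among them Socs1, an inhibitor of JAK kinases, at 73.4 ± 7.84, 5.87 ± 0.263 and 6.88 ± 0.678 CPM.

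The guanylate-binding proteins (GBPs) are interferon-induced GTPases that join the IRG proteins at the vacuole. Of 11 tested Gbp genes, 6 passed the count filter without the Sub-ASC libraries. All 6 were higher in Sub-ASCs than in PVASCs and than in Ab-ASCs, where 35.7% and 38.3% of all genes were. Their log2 fold changes against PVASCs were 1.79 to 7.27. The other 5, Gbp4, Gbp6, Gbp8, Gbp10 and Gbp11, entered the fit only through Sub-ASC reads. Gbp10 and Gbp11 had 0 reads in all Ab-ASC and PVASC libraries and 102 ± 9.7 and 60.3 ± 5 CPM in Sub-ASCs. Between PVASCs and Ab-ASCs, 5 of the 6 were higher in PVASCs and Gbp2 was lower, where 24.7% of all genes were higher and 32.1% lower. Mx2 and Gvin1, other interferon-induced GTPases, were higher in Sub-ASCs as well and were higher in PVASCs than in Ab-ASCs, and Mx1 entered the fit only through Sub-ASC reads.

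IRG and GBP proteins are steered to the vacuole by the ubiquitin-like conjugation machinery of autophagy. Of 10 such genes, 6 were higher and 0 lower in Sub-ASCs than in PVASCs, where 35.7% and 34.7% of all genes were. Against Ab-ASCs 4 were higher and 5 lower, where 38.3% and 37% of all genes were. The count lower than in Ab-ASCs was 1 to 5 when libraries were left out, with 3 without Sub-ASC replicate 2 or replicate 2 of each group and 1 without replicate 3 of each group. Their log2 fold changes against PVASCs ran from -0.15 to 1.36. Atg5 was 26.9 ± 3.83 CPM in Sub-ASCs, 35.4 ± 2.33 in Ab-ASCs and 29.8 ± 1.09 in PVASCs. Of 4 genes of ubiquitin ligases and ubiquitin-binding adaptors at the vacuole, 3 were higher and 0 lower in Sub-ASCs than in PVASCs. Against Ab-ASCs 2 were higher and 2 lower. The lower ones were Sqstm1 and Rabgef1, with log2 fold changes of -0.27 and -0.66 (edgeR adjusted p = 0.0020 and 7.7e-07). The E3 ligase gene Trim21, itself induced by interferon, changed most of the 4. It went from 3.16 ± 0.508 CPM in Ab-ASCs and 4.05 ± 0.374 in PVASCs to 47.3 ± 1.79 in Sub-ASCs.

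All 10 genes of a list of type I interferon targets were higher in Sub-ASCs than in either other group. Of all genes, 35.7% were higher than in PVASCs and 38.3% than in Ab-ASCs. Of 10 type II targets, Cxcl9, Ciita, Ido1 and Batf2 entered the fit only through Sub-ASC reads, and the other 6 were all higher in Sub-ASCs. The log2 fold changes against PVASCs were 2.60 to 5.55 for the type I targets and 4.82 to 10.07 for these 6. In PVASCs against Ab-ASCs, 24.7% of all genes were higher and 32.1% lower. Of the type I targets 6 were higher and 2 lower, with Ifit1 at 1.29 ± 0.0425 CPM in Ab-ASCs and 6.84 ± 0.648 in PVASCs. Of the 6 type II targets 0 were higher and 4 lower, with Psmb8, an immunoproteasome subunit, at 13.6 ± 0.898 and 3.93 ± 0.708 CPM. In a fit of only these groups 1 of the 6, Nlrc5, was higher (edgeR adjusted p = 0.0434) and 3 were lower, Nos2 being lost (adjusted p = 0.114). Over all 10 type II targets 0 were higher and 5 lower, Batf2 being among the 5 although it entered the fit only through Sub-ASC reads. Without replicate 1 of each group the same 10 gave 2 and 3. These counts over all 10 are not a result about the 6. With library totals 1 of the 6 was higher and 3 lower, where 38% and 16.2% of all genes were. The difference between the lists was not tested.

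**Figure D4:**
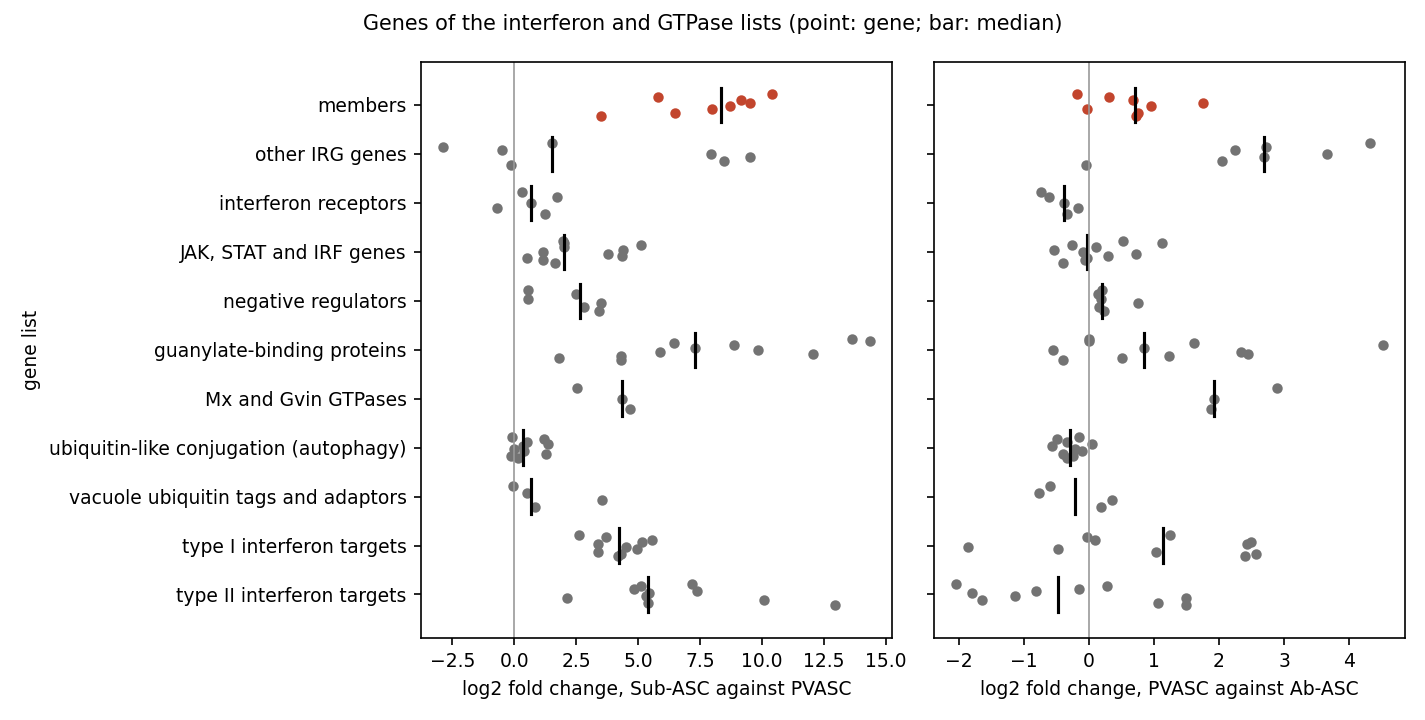
Log2 fold change of each tested gene by list, for Sub-ASCs against PVASCs (left) and PVASCs against Ab-ASCs (right), with 1 point per gene and a bar at the median. The medians of the IRG genes (red) and the Gbp genes in the left panel are 8.34 and 7.27, beside 6.48 and 5.09 over the genes that passed without the Sub-ASC libraries, and the axes of the panels differ. Points and medians include genes that entered the fit only through Sub-ASC reads.

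Markers of other cell types that such cultures could hold were also examined. Of 8 T and NK cell markers, 4 were tested, and Cd4, Cd8a and Nkg7 entered the fit only through Sub-ASC reads. Trac, the T cell receptor α constant gene and the only other marker tested, was lower in Sub-ASCs than in PVASCs, with 10, 14 and 9 reads beside 47, 38 and 37 (log2 fold change -1.55, edgeR adjusted p = 0.000248). Their summed level was 3.18 to 4.08 CPM in Sub-ASCs, 0.429 to 0.711 in Ab-ASCs and 1.24 to 1.56 in PVASCs. Cd4 had 27, 19 and 20 reads in Sub-ASCs and 0 in Ab-ASCs. No marker of this list was at 0 in all Sub-ASC libraries, whereas Cd3e, Cd4, Cd8a and Ncr1 were at 0 in all Ab-ASC libraries and Cd3e, Cd3d and Ncr1 in all PVASC libraries.

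Of 9 macrophage markers, 7 were higher and 2 lower in Sub-ASCs than in PVASCs, and likewise than in Ab-ASCs. Of all genes, 35.7% were higher and 34.7% lower than in PVASCs, and 38.3% and 37% than in Ab-ASCs. Ptprc, which encodes the leukocyte antigen CD45, was 8.93 ± 1.01 CPM in Sub-ASCs, 1.41 ± 0.249 in Ab-ASCs and 2.81 ± 0.476 in PVASCs. The summed level of the list was 296 to 301 CPM in Sub-ASCs, 330 to 420 in Ab-ASCs and 316 to 326 in PVASCs. Most of this sum was Lyz2, and without it the list came to 132 to 141, 92.3 to 103 and 70.3 to 74.6 CPM, highest in Sub-ASCs. The 5 endothelial markers summed to 713 to 722 CPM in PVASCs, 61 to 63 in Ab-ASCs and 167 to 181 in Sub-ASCs, and the 6 mesothelial markers to 95 to 101 CPM in Ab-ASCs, 30.3 to 30.9 in PVASCs and 1.6 to 2.57 in Sub-ASCs. Of these 4 lists, only the mesothelial (Lrrn4 in Sub-ASCs) and the T and NK cell list had a marker at 0 in all libraries of a group. The part of such cells in the IRG levels was not tested.

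Within 100 kb of the 8 genes, 30 genes other than IRG genes were in the table and 16 were tested. The IRG genes Gm5431, 9930111J21Rik1, 9930111J21Rik2 and F830016B08Rik, which also lie there and are described above, are not counted. Of the 16, 12 passed the count filter without the Sub-ASC libraries. Against PVASCs 4 of these were higher and 6 lower in Sub-ASCs, where 35.7% and 34.7% of all genes were. Their median log2 fold change was -0.21. Olfr56 and Psme2b were higher in Sub-ASCs by log2 fold changes of 3.17 and 1.75. The other 4, Gm12185, Gm12248, Gm12188 and BC023105, entered the fit only through Sub-ASC reads. BC023105 and Gm12188, listed as pseudogenes, lie outside the rule for named genes and were named after their values were seen. Several of these overlap members, since Gm12185 shares 223 exonic bases with Tgtp1 on the same strand, and Ifi47 shares 111 with Olfr56 on the same strand and 106 with Gm12188 on the opposite strand. No source used here states whether reads were counted by strand.

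Other neighbours had small differences or were lower in Sub-ASCs. Rack1, a ribosomal scaffold protein gene near Irgm1, was 1013 CPM in Sub-ASCs, 1558 in Ab-ASCs and 1182 in PVASCs. Cnot8 and Gemin5, near Gm12250, had log2 fold changes against PVASCs of 0.16 and -0.69, and Smim3, near Iigp1, had -2.40. Between PVASCs and Ab-ASCs, 1 of the 12 was higher in PVASCs and 6 lower, where 24.7% and 32.1% of all genes were. With library totals 5 were higher and 1 lower, where 38% and 16.2% of all genes were.

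**Figure D5:**
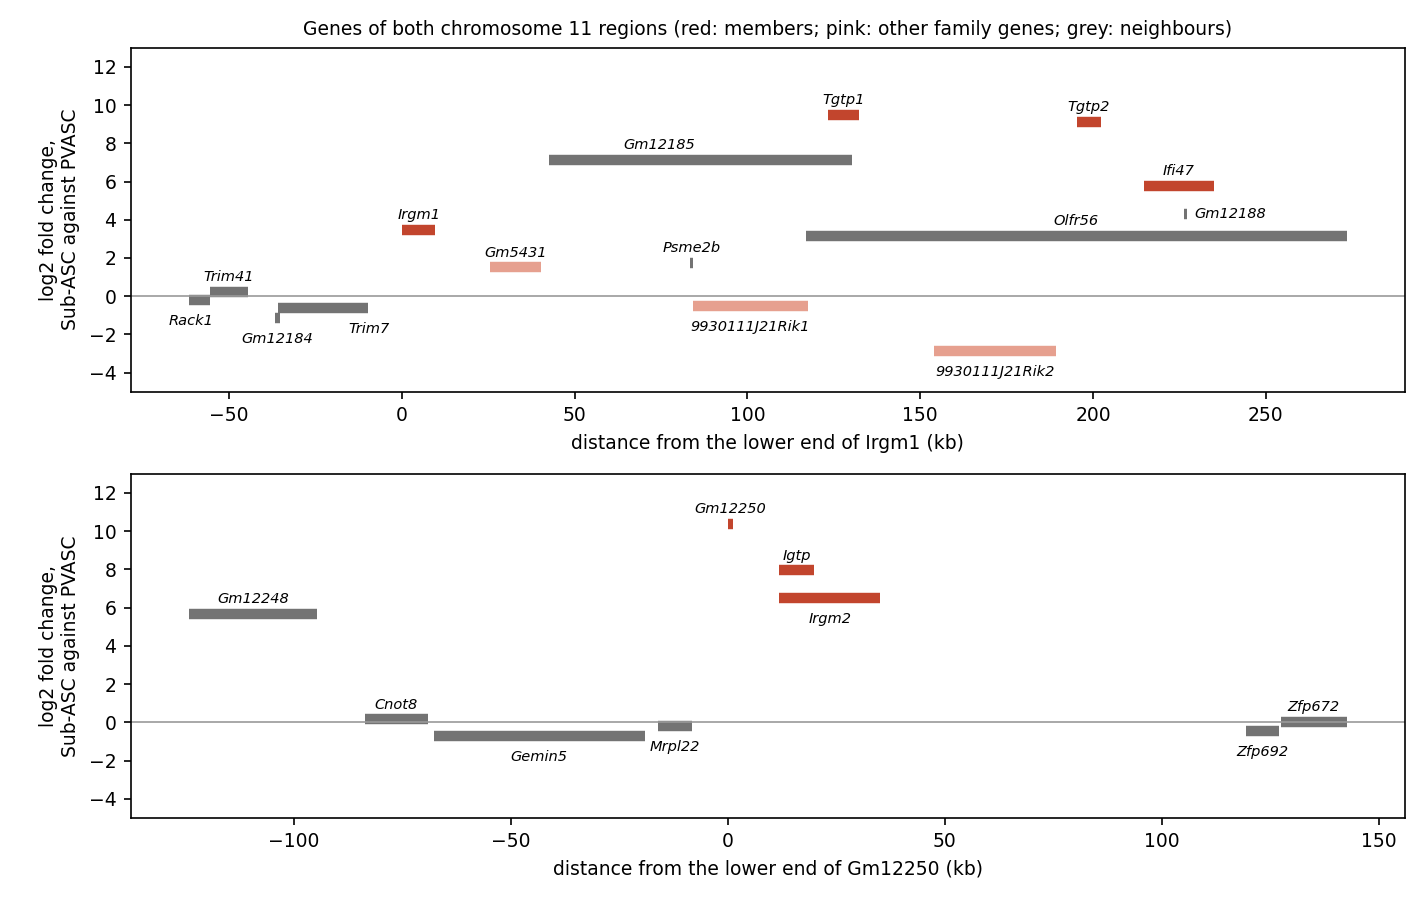
Log2 fold change between Sub-ASCs and PVASCs for genes of both chromosome 11 regions, drawn over the extent of each gene as distance in kb from the lower end of Irgm1 (top) or Gm12250 (bottom). IRG members (red) lie between 3.48 and 10.39, while Rack1, Trim41, Cnot8 and Zfp672 lie near 0.

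Among genes outside the 8, likeness was measured as the root mean square difference of centred log2(CPM + 1) from the median profile of the 8 over 9 libraries. The 10 most alike were Gm4951 (0.168), Wnt16 (0.176), Gbp6 (0.192), Gbp10 (0.217), Prg4 (0.23), Gbp7 (0.264), Gm4841 (0.274), Pi16 (0.301), Ifi205 (0.333) and Lvrn (0.333). Of these, 2 are IRG genes, 3 are Gbp genes and Ifi205 is an interferon-inducible gene. Wnt16 encodes a secreted Wnt ligand, Prg4 the lubricating proteoglycan lubricin and Pi16 a peptidase inhibitor, and Pi16 was 854 CPM in Sub-ASCs, 7.91 in Ab-ASCs and 5.35 in PVASCs. Among the 8 themselves, Tgtp1 (0.0678) was nearest to the median profile and Irgm1 (1.56) farthest. The measure depends on the pseudocount, and with 0.1 in place of 1 CPM only 1 of these 10 genes remained.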

How the data were processed

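The authors deposited raw counts of reads per gene for 9 bulk RNA-seq libraries, and listed where each gene lies, how long it is and its biotype, without normalization or filtering. Total RNA was extracted with Trizol and libraries were made with the NEBNext Ultra kit. The submitters' processing notes name CASAVA 1.8, Bowtie 0.12.2 and featureCounts 1.5.0-p3 and the builds mm8 and mm10. Listed positions were those of GENCODE M21 (GRCm38) for 53585 of 54532 genes (98.3%). The treatment of strand and of reads with several matches is not given in the sources used here. Libraries were grouped by their labels. Replicates differed beyond sampling noise. Ab-ASC replicate 1 stood apart, with a chi-square per degree of freedom of 29.3 and 18.5 against Ab-ASC replicates 2 and 3. All other pairs within a group had 2.92 to 8.09. The p-values measure only the spread between these libraries.

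CPM, FPKM and fold changes were calculated here from the deposited counts. In R 4.3.3, edgeR 4.0.16 was used with limma 3.58.1, filterByExpr, TMM, 1 fit of all 9 libraries, the quasi-likelihood F-test and Benjamini-Hochberg adjustment over 16526 genes (threshold 0.05), after the procedure had been tested on simulated data. Folds of Sub-ASCs over the other groups are ratios of reads per effective library size with exact 95% counting intervals. FPKM was based on library totals and listed lengths. Python 3.11.15, pandas 2.3.3 and Biopython 1.88 were used for tables and sequences, which were taken from GENCODE M21 and RefSeq (GRCm38.p6).

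The members, gene lists and tests were chosen with earlier results of these data known. Named genes are the 8 IRG genes, the genes of the lists, the 10 genes with the pattern most like the members and protein-coding neighbours within 100 kb. In the results, listed genes and neighbours that passed the count filter only through Sub-ASC reads were left out of the counts of called genes. This choice was made after seeing the data. Counts said to be over all genes of a list, and the closing counts of listed genes and neighbours, keep them. Alternatives tried were library totals (added after seeing the data for all but the members' contrasts with Sub-ASCs), DESeq2 1.42.0, RLE size factors, other count filters, a fit of the groups compared, a replicate block, a fold minimum, Tgtp1 and Tgtp2 summed, other lengths and pseudocounts, and leaving out libraries.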

Additional observations from a re-analysis of the deposited data

How the results depend on the processing

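No called member changed direction in any alternative run. Scaling by library totals turned the sign of 470 genes called between PVASCs and Ab-ASCs, among them Ifngr2, Atg16l1 and Cnot8, and these 3 were then not called. The calls of Irgm1 and Irgm2 between PVASCs and Ab-ASCs held in all 20 alternatives run for them other than a minimum log2 fold change, with log2 fold changes of 0.68 to 0.95 and 0.71 to 0.98. The number of members higher in PVASCs, over the 5 kept on the reads of PVASCs and Ab-ASCs, was 4, and 2 to 4 when libraries were left out. It was 3 without Ab-ASC replicate 2 or 3 or replicate 2 of each group, and 2 without replicate 3 of each group. It was 0 where a log2 fold change of at least 1 in size was required. With that minimum all genes called fell to 2551 (PVASC against Ab-ASC), 5328 (Sub-ASC against PVASC) and 6241 (Sub-ASC against Ab-ASC). Listed genes here and below leave out the IRG genes and all surface and cell type markers. They keep genes that passed the filter only through Sub-ASC reads. With that minimum, those higher and lower in PVASCs than in Ab-ASCs came to 13 and 5. Those lower in Sub-ASCs came to 0 in both contrasts. Neighbouring genes lower were 0 in PVASCs and 2 in Sub-ASCs in each contrast.

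Whether replicate numbers pair the libraries is not stated. Deviations of same-numbered libraries correlated at -0.152 to 0.254, and 9 of 18 were best with their own number among 3 candidates. These values do not settle it. With the replicate block, 4 of the 5 members kept on the reads of PVASCs and Ab-ASCs were called, the same 4 as without it.

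Of the 12 neighbours kept on the reads of PVASCs and Ab-ASCs, 1 was higher in PVASCs. The count was also 1 with at least 10 reads in every library or in a fit of only these groups. Over all 16 tested it was 3, which includes Gm12185 and BC023105, kept only through Sub-ASC reads. It was 5 without the count filter, where more were tested. With at least 10 reads, 3 neighbours were higher in Sub-ASCs than in PVASCs and 2 than in Ab-ASCs, as fewer were tested. Leaving out libraries gave 2 to 5 neighbours higher and 3 to 6 lower in PVASCs, with those kept only through Sub-ASC reads included. It gave 1 to 2 listed genes lower in Sub-ASCs than in PVASCs and 5 to 9 lower than in Ab-ASCs.

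Scaling by library totals moved the median of all genes to 0.17 (PVASC against Ab-ASC) and -0.15 (Sub-ASC against PVASC), and that of the members against PVASCs to 8.18. Between PVASCs and Ab-ASCs it gave 32 listed genes higher in PVASCs, and 7 neighbours higher and 1 lower, those kept only through Sub-ASC reads included. It also gave 5 listed genes lower in Sub-ASCs than in PVASCs. With Tgtp1 and Tgtp2 summed the members' median was 7.97 against PVASCs and 7.93 against Ab-ASCs. The share of the regulatory genes was 41.4%, 79% and 80.9% of reads in Sub-ASCs, Ab-ASCs and PVASCs, and 46.7%, 68.9% and 71.8% with GENCODE lengths, an alternative added after seeing the data. Ordered by CPM, 2, 4 and 4 of the 8 genes kept their place. With a pseudocount of 0.1, 1 of the 10 most alike genes was shared. The cause of these changes was not tested. Tgtp1, Tgtp2 and Gm12250 had 4 to 31 reads per group outside Sub-ASCs.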
